A study of Homo sapiens with 4 samples.

Results

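KP4, a human pancreatic ductal adenocarcinoma cell line, was profiled by RNA sequencing as E5 cells and as control cells, and 21 protein-coding genes that the control cells expressed were close to silent in the E5 cells. They were chosen from the vehicle libraries as genes with a mean of at least 3 CPM (counts scaled to all reads assigned to genes in a library) in control cells and under 0.5 CPM in E5 cells. Of 60651 genes in the count table, 10637 protein-coding genes reached 3 CPM in control vehicle cells. Among these, 27 (0.254%) fell under 0.5 CPM in E5 vehicle cells, and 6 of the 27 were left out of the set by name, as single genes or by gene family. The vehicle values of the 21 genes are therefore a description, and nothing is read from them.

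The groups were E5 cells given FOLFIRINOX, control cells given FOLFIRINOX, E5 cells given vehicle and control cells given vehicle, each for 96 h. FOLFIRINOX was a mixture of 25 nM SN-38, which is the active form of irinotecan, oxaliplatin, a platinum drug, at 5 µM and what the labels write as 5-F at 10 µM, and the vehicle was DMSO. The title of the study calls the E5 cells resistant, while its design text speaks of 5 cycles of DMSO or FOLFIRINOX, so the earlier exposure of the E5 vehicle cells is not settled here. The labels do not say whether E5 is a clone or a pool of cells. All 4 groups are the same cell line in the same medium. Each GEO sample has 3 numbered columns, read here as 3 libraries, and nothing says that they are separate cultures, so p-values measure only the spread between these columns, which may be technical. Gene reads per library ranged from 7359034 to 21775030, and pairs of libraries of a group differed by 1.52 to 15.3 times the counting variance. In bulk RNA, fewer expressing cells and less RNA per cell cannot be told apart.

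The label of the line was set against marker genes. Ductal and epithelial markers (KRT7, KRT8, KRT18, KRT19, EPCAM and CDH1) summed to 769 to 882 CPM in E5 FOLFIRINOX libraries, 438 to 495 in control FOLFIRINOX libraries, 711 to 793 in E5 vehicle libraries and 187 to 222 in control vehicle libraries. Most of this was KRT8 and KRT18, keratins of simple epithelia, whereas EPCAM and CDH1 stayed under 2 CPM on average in each group. EPCAM went against the sum, at 0.447 CPM in E5 FOLFIRINOX and 1.28 CPM in control FOLFIRINOX cells. Under vehicle it averaged 0.28 CPM in E5 and 0.579 CPM in control cells. The mesenchymal markers VIM, ZEB1, FN1 and CDH2 summed to 2130 to 2250, 2340 to 2540, 2810 to 2960 and 2480 to 2720 CPM in the same order. Nearly all of this was VIM, and the others went in both directions. FN1 averaged 19.9, 10.5, 26.9 and 6.05 CPM in that order, higher in E5 cells with either treatment. CDH2 averaged 80.1, 113, 68.2 and 131 CPM and ZEB1 64.4, 85.0, 36.5 and 54.8 CPM, both lower in E5 cells. Blood cell markers (among them CD3E, CD14, LYZ and HBB) summed to at most 0.815 CPM in any library, with CD3E at 0 in all, and acinar markers (PRSS1, CPA1 and AMY2A) to at most 0.136. Fibroblast markers (PDGFRB, DCN, LUM and FAP) summed to at most 1.02 CPM. Endothelial markers (PECAM1, CDH5 and VWF) summed to 2 to 2.82 CPM in E5 FOLFIRINOX libraries against 0.951 to 1.40 in control FOLFIRINOX libraries, and to 6.44 to 6.87 in E5 vehicle against 0.65 to 1.42 in control vehicle libraries. CDH5 averaged 1.18 CPM in E5 FOLFIRINOX and 0.0536 in control FOLFIRINOX cells, and 5.33 in E5 vehicle and 0.147 in control vehicle cells, while VWF was the highest of the 3 in both control groups. Endocrine markers (CHGA, SYP, INS and GCG) summed to 14.5 to 15.7 CPM in E5 FOLFIRINOX against 8.02 to 11 in control FOLFIRINOX libraries, and to 28.9 to 29 in E5 vehicle against 20.8 to 22.1 in control vehicle libraries, nearly all of it SYP. The part of these markers in the results below was not tested.

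The genes have varied functions. SCEL, EVPL and KAZN encode proteins of the cornified envelope or partners of its plakins, the scaffold that hardens the surface cells of stratified epithelia, and GRHL3 encodes a grainyhead-like transcription factor of epidermal differentiation. CLDN10 (a claudin of tight junctions), CDH10 (a type II cadherin), AMOT (angiomotin, a junctional protein that binds YAP), MYH14 (the heavy chain of non-muscle myosin IIC) and PPP1R14A (CPI-17, an inhibitor of myosin phosphatase) act at cell junctions or on cell contraction. RAB34 is a small GTPase needed for the primary cilium in many cells, NSG1 an endosomal protein best known from neurons and JAKMIP2 a coiled-coil protein. CALB1 is the calcium buffer calbindin and CRACR2A a regulator of store-operated calcium entry. SULT1B1 is a cytosolic sulfotransferase that conjugates small phenols and thyroid hormone, and PRTFDC1 a relative of the purine salvage enzyme HPRT1. EYA1 is a transcriptional coactivator with phosphatase activity, IL13RA2 a high-affinity interleukin-13 receptor often described as a decoy, OR51B5 an olfactory receptor, LRATD1 a protein with an LRAT domain and C11orf96 an open reading frame without a role given here.

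Promoter sequence was compared among the genes because a shared base composition, motif or CpG density would be a feature that the choice did not use. RefSeq's table of promoters on GRCh38.p14, which covers 250 bases before and 50 after each gene start, held 15 of the 21 genes. Those of SCEL (chr13:77535456-77535755, plus strand), SULT1B1 (chr4:69760571-69760870, minus strand), RAB34 (chr17:28718219-28718518, minus strand) and PRTFDC1 (chr10:24952557-24952856, minus strand) are shown to contrast the CpG-poor and CpG-rich ends of the set. Capitals mark each CpG dinucleotide, and all are written in the direction of transcription.
SCEL: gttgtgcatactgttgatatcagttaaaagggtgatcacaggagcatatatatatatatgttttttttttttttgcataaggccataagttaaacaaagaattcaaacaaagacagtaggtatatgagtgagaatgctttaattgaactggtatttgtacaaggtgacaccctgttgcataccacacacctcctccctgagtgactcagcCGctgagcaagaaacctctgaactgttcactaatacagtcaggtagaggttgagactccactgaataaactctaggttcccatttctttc
SULT1B1: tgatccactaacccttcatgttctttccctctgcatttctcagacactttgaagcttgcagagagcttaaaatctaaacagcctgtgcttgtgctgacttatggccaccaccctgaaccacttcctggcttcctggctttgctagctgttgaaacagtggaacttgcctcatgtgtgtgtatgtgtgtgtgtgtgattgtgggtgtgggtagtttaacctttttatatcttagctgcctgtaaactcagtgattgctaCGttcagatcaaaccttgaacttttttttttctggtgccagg
RAB34: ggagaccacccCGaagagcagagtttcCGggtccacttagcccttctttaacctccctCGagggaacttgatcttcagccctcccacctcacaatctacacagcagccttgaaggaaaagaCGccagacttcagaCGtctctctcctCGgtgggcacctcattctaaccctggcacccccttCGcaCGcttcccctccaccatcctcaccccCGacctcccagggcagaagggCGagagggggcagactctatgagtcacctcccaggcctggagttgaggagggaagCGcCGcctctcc
PRTFDC1: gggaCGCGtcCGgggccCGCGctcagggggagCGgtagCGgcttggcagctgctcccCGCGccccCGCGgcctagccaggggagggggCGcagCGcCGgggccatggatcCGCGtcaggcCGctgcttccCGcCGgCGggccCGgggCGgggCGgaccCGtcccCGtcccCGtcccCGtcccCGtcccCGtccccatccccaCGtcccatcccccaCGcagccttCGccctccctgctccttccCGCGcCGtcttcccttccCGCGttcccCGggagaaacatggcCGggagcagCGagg

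SCEL and SULT1B1 each have a single CpG in this window, against 12 for RAB34 and 40 for PRTFDC1. GC content was 38.3% for SCEL, 44.3% for SULT1B1, 60.7% for RAB34 and 78.7% for PRTFDC1. A promoter was called CpG-rich here with over 55% GC and an observed over expected CpG ratio above 0.6. By that definition 8 of the 15 promoters (53.3%) were CpG-rich (AMOT, CRACR2A, KAZN, LRATD1, MYH14, NSG1, PPP1R14A and PRTFDC1), against 79.7% of 8744 promoters of protein-coding genes of at least 3 CPM in control vehicle cells and 60.3% of all 15166 protein-coding promoters in the table. CDH10 and CLDN10 had a ratio of 0.685 and 0.96 at a GC content of 48.3% and 41.7%, and GRHL3 and JAKMIP2 a ratio of 0.37 and 0.208. The set therefore spans both promoter classes. The window lay within 200 bases of the gene start in the count table for 10 of the 15, of which 4 were CpG-rich. It lay 11.7 kb from it for CRACR2A, 15.4 kb for MYH14, 27.3 kb for SULT1B1, 39.0 kb for NSG1 and 706 kb for KAZN, so those windows may not be the start used in these cells.

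**Figure D1:**
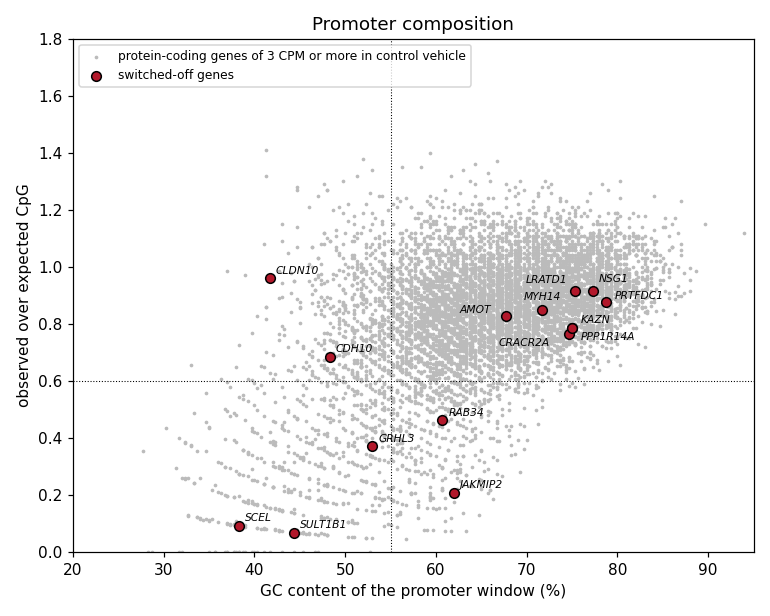
GC content (%, x axis) and observed over expected CpG (y axis) of the RefSeq promoter windows of 15 switched-off genes (red, named) and of protein-coding genes of at least 3 CPM in control vehicle cells (grey). Dotted lines mark 55% GC and a ratio of 0.6, and 8 of the 15 genes lie in the upper right field.

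Short motifs were searched on both strands of the same windows. TGANTCA, the letters that AP-1 factors bind, occurred in 2 of 15 windows (13.3%), against 3.98% of the expressed genes and 5.74% of all protein-coding promoters. It began 49 bases before the gene start in SCEL and 2 bases after it in RAB34. TATAAA, the core of the TATA box, was found in 1 window (6.67%, against 5% and 9.59%), that of SULT1B1, on the opposite strand 29 bases before the start. GGGCGG, the GC box, was found in 9 (60%, against 72.6% and 59.2%) and CACGTG, an E box, in 0 (against 10.4% and 8.91%). These matches describe letters in the windows and were not tested.

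The libraries given FOLFIRINOX took no part in choosing the genes, so E5 FOLFIRINOX cells against control FOLFIRINOX cells show whether the loss holds in other libraries. All 21 genes were lower in E5 cells at an adjusted p under 0.05 in edgeR's quasi-likelihood test, where 27.6% of 15636 tested genes were called lower. In all 21, every E5 FOLFIRINOX library also lay below every control FOLFIRINOX library, against 34.3% of all tested genes. For 19 of the 21 the difference was at least 4-fold, against 2.13% of all tested genes. Their median log2 fold change was -3.40, beside -0.01 for all genes tested, and it stays at -3.40 with the gene at 0 counts, CDH10, at its bound. All 21 passed the filter on low counts, since each had to reach 3 CPM in control vehicle libraries. In a fit of the FOLFIRINOX libraries alone, CALB1 and GRHL3 did not pass this filter, and the other 19 were called lower. The main test also took its estimate of spread from all 12 libraries, among them the vehicle libraries that chose the genes. Summed over the 21 genes, the level was 5.28 to 5.68 CPM in E5 FOLFIRINOX libraries, 89.6 to 98.9 in control FOLFIRINOX libraries, 4.74 to 5.85 in E5 vehicle libraries and 126 to 130 in control vehicle libraries.

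**Figure D2:**
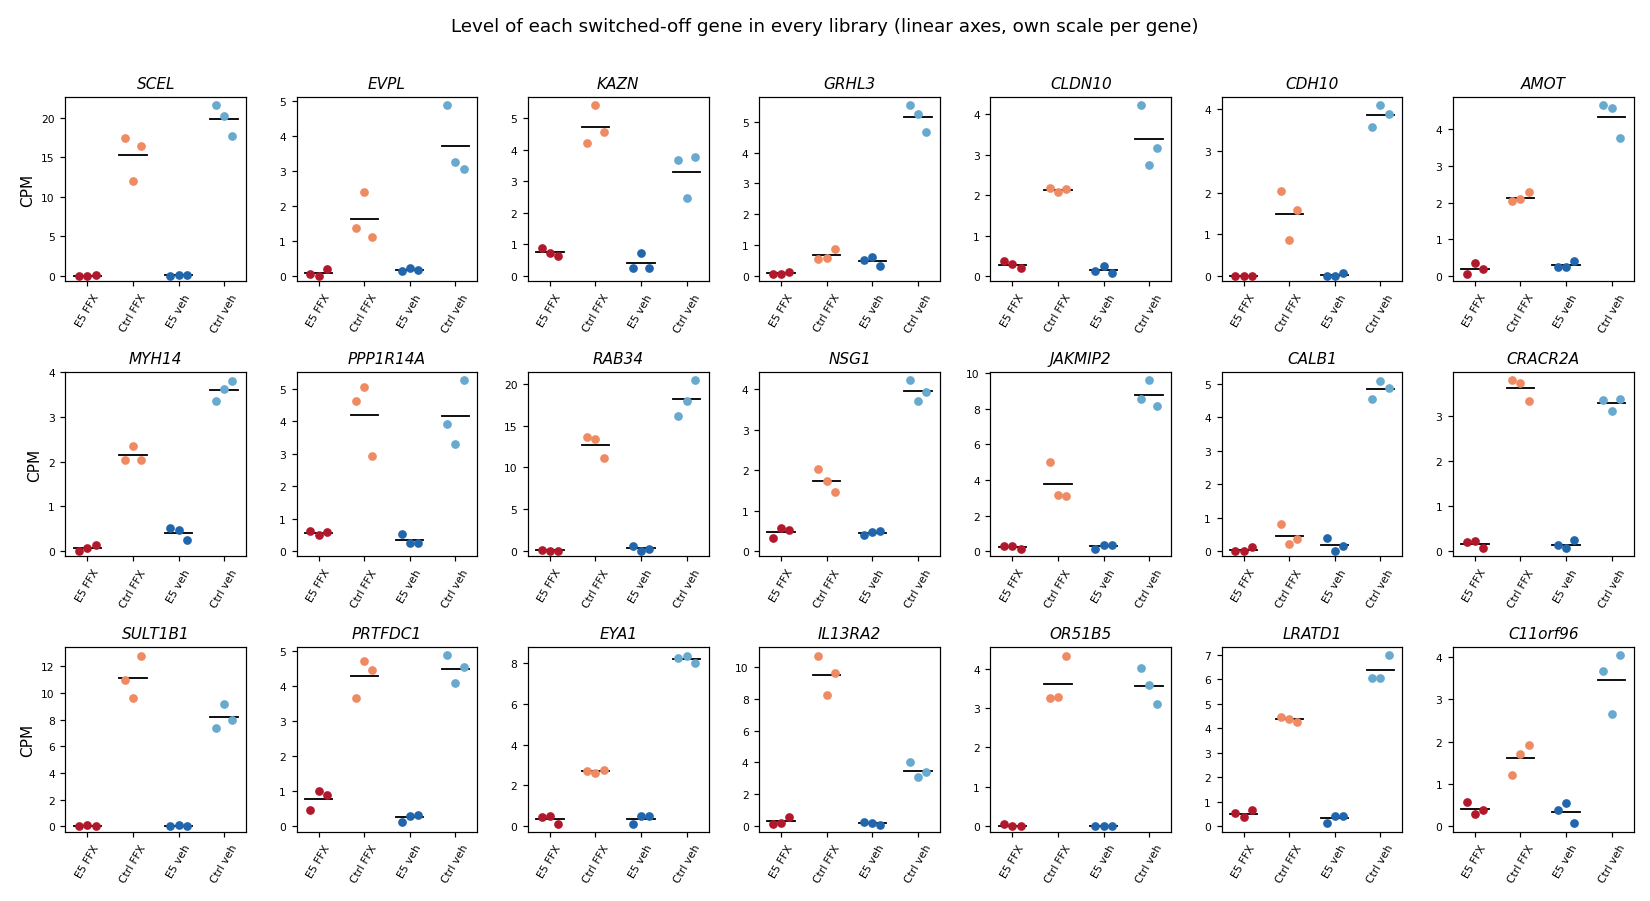
CPM (y axis, linear, own scale for each gene) of the 21 genes in the 12 libraries, grouped as E5 FOLFIRINOX (E5 FFX), control FOLFIRINOX (Ctrl FFX), E5 vehicle (E5 veh) and control vehicle (Ctrl veh), with points for libraries and bars for means of 3. The E5 libraries lie at 1 CPM or below for every gene under FOLFIRINOX and at 0.724 CPM or below under vehicle.

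Among the genes of the cornified envelope, SCEL (ENSG00000136155.17, GRCh38, chromosome 13, 77535674 to 77645263) had the highest CPM of the set in control cells. Its level was 0.0523, 0 and 0.0645 CPM in E5 FOLFIRINOX libraries, against 17.5, 12 and 16.4 CPM in control FOLFIRINOX libraries. Only 2 reads remained over the 3 E5 libraries, against 633 in the control libraries, a ratio of control to E5 of 357 (95% exact counting interval 98.3 to 2950, adjusted p = 8.1e-12 in edgeR's test). In the vehicle libraries that chose it, SCEL stood at 0, 0.121 and 0.0818 CPM in E5 cells, against 21.6, 20.2 and 17.7 CPM in control cells. The E5 values are thus at the level of single reads with either treatment, where a count of 0 over a group would allow up to 0.0618 CPM in E5 FOLFIRINOX and 0.082 in E5 vehicle cells. These limits and all counting intervals cover counting error only.

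EVPL, which encodes envoplakin, had 0.0523, 0 and 0.194 CPM in E5 FOLFIRINOX libraries, against 1.36, 2.41 and 1.11 CPM in control FOLFIRINOX libraries (log2 fold change -4.15 ± 0.58 SE, adjusted p = 1.2e-05 in edgeR's test). KAZN, which encodes kazrin, had 0.889, 0.717 and 0.645 CPM in E5 FOLFIRINOX libraries, against 4.21, 5.42 and 4.56 CPM in control FOLFIRINOX libraries (-2.57 ± 0.25, adjusted p = 2.3e-07 in edgeR's test). KAZN therefore kept more reads in E5 cells than SCEL or EVPL, 37 over the 3 libraries. GRHL3, the epidermal transcription factor, had 0.0523, 0.0717 and 0.129 CPM in E5 FOLFIRINOX libraries, against 0.544, 0.59 and 0.877 CPM in control FOLFIRINOX libraries (-2.87 ± 0.50, adjusted p = 0.00012 in edgeR's test). The control level of GRHL3 was itself low under drug, and the groups still did not overlap. Without E5 FOLFIRINOX library 3, the log2 fold change of EVPL was -5.37.

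Of 18 cornified envelope genes listed, 5 were tested and 2 of these, SCEL and EVPL, belong to the set. Among the other 3, PPL, the periplakin that pairs with envoplakin, was lower in E5 FOLFIRINOX cells at 31.1 CPM on average, against 46.4 CPM in control FOLFIRINOX cells (-0.50 ± 0.076, adjusted p = 3e-05 in edgeR's test). TGM1, a crosslinking transglutaminase, and CNFN, cornifelin, averaged under 1 CPM in every group and did not pass (adjusted p = 0.9 and 0.69 in edgeR's test). The precursors LORICRIN, SPRR1A, SPRR1B and SPRR2E and the enzyme TGM3 had 0 counts in all 12 libraries, so the control cells expressed SCEL, EVPL and PPL without most of the envelope's other precursors. The list's median log2 fold change was -0.50, and with SCEL and EVPL in it this is not independent of the choice. GRHL1, a relative of GRHL3, did not pass, at 5.32 CPM in E5 FOLFIRINOX and 5.38 CPM in control FOLFIRINOX cells (0.06 ± 0.15, adjusted p = 0.73 in edgeR's test).

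**Figure D3:**
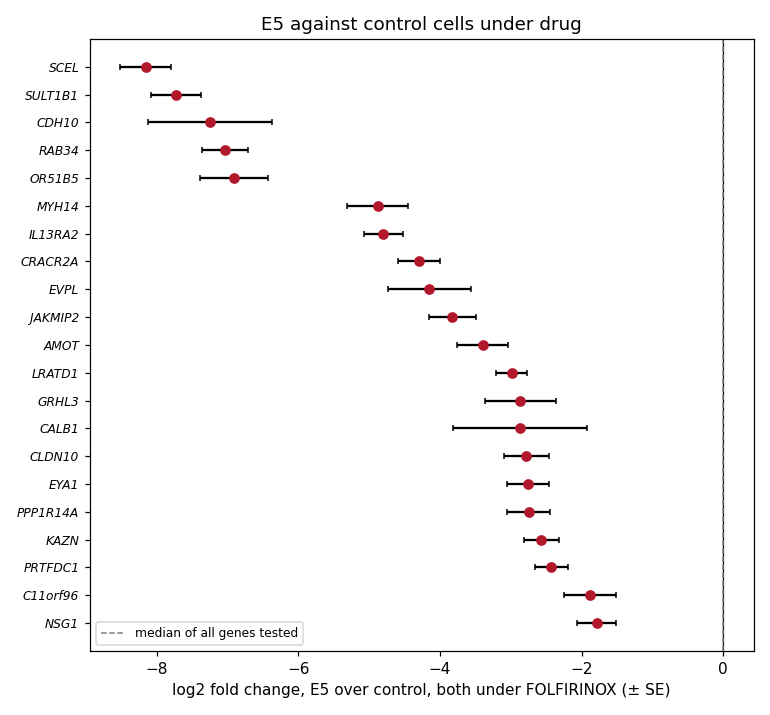
Fitted log2 fold change (x axis, points, with bars of ± 1 SE) of the 21 genes in E5 FOLFIRINOX cells over control FOLFIRINOX cells, which ranges from -8.16 for SCEL to -1.79 for NSG1, with the median of all tested genes (-0.01) as a dashed line. CDH10 had 0 counts in E5 FOLFIRINOX libraries, so its point depends on edgeR's prior count and is not a measured size.

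Among genes of cell junctions and contraction, CDH10 had 0 reads in all 3 E5 FOLFIRINOX libraries, against 2.04, 0.858 and 1.58 CPM in control FOLFIRINOX libraries. It was at least 21.8-fold lower in E5 cells, with the limit set at 3 counts over the group (adjusted p = 5e-06 in edgeR's test). MYH14 had 0, 0.0717 and 0.129 CPM in E5 FOLFIRINOX libraries, against 2.04, 2.36 and 2.05 CPM in control FOLFIRINOX libraries. That was 3 against 94 reads, a ratio of control to E5 of 35.3 (95% exact counting interval 11.7 to 174, adjusted p = 5.4e-08 in edgeR's test). AMOT had 0.0523, 0.359 and 0.194 CPM in E5 FOLFIRINOX libraries, against 2.04, 2.09 and 2.28 CPM in control FOLFIRINOX libraries (-3.40 ± 0.36, adjusted p = 5.8e-07 in edgeR's test). The control libraries of MYH14 and AMOT were nearly level, so the spread lay in the few E5 reads. The fitted log2 fold change of MYH14 was -4.88 ± 0.43, and -4.22 without E5 FOLFIRINOX library 1 or -5.72 without library 3. That of AMOT was -4.04 without E5 FOLFIRINOX library 2.

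CLDN10 had 0.366, 0.287 and 0.194 CPM in E5 FOLFIRINOX libraries, against 2.17, 2.09 and 2.16 CPM in control FOLFIRINOX libraries (-2.78 ± 0.32, adjusted p = 1.2e-06 in edgeR's test). PPP1R14A had 0.628, 0.502 and 0.581 CPM in E5 FOLFIRINOX libraries, against 4.62, 5.04 and 2.92 CPM in control FOLFIRINOX libraries (-2.75 ± 0.30, adjusted p = 7.9e-07 in edgeR's test). Both had at least 3 reads in each E5 FOLFIRINOX library, whereas CLDN10 had a single read in E5 vehicle libraries 1 and 3. Per length, PPP1R14A had more transcript than most of the set: the authors' FPKM, a level scaled to gene length and depth, averaged 1.06 ± 0.168 in E5 FOLFIRINOX and 7.07 ± 1.98 in control FOLFIRINOX cells (SD, n = 3 each).

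Close relatives of the junctional and contractile genes went in both directions. AMOTL1, an angiomotin-like paralogue of AMOT, was higher in E5 FOLFIRINOX cells at 144 CPM, against 54.6 CPM in control FOLFIRINOX cells (1.47 ± 0.079, adjusted p = 1e-10 in edgeR's test). AMOTL2, the other paralogue, was lower at 73.5 CPM in E5 FOLFIRINOX cells, against 89.2 CPM in control FOLFIRINOX cells (-0.21 ± 0.08, adjusted p = 0.038 in edgeR's test). MYH9, the heavy chain of non-muscle myosin IIA, was higher at 1180 CPM, against 599 CPM (1.05 ± 0.082, adjusted p = 1.1e-08), and MYH10 of myosin IIB lower at 124 CPM, against 149 CPM (-0.18 ± 0.062, adjusted p = 0.021), in E5 and control FOLFIRINOX cells in edgeR's test. PPP1R14C, a paralogue of PPP1R14A, was higher in E5 FOLFIRINOX cells at 11 CPM, against 1.18 CPM in control FOLFIRINOX cells (3.36 ± 0.21, adjusted p = 8.4e-10 in edgeR's test). PPP1R14B was also higher (0.43 ± 0.11, adjusted p = 0.0024 in edgeR's test). CDH18 is a cadherin gene 3910 kb before CDH10 on chromosome 5. It was lower at 0.609 CPM in E5 FOLFIRINOX cells, against 4.54 CPM in control FOLFIRINOX cells (-2.75 ± 0.21, adjusted p = 9.3e-09 in edgeR's test). Of the other claudins tested, CLDN1 was lower at 161 CPM in E5 FOLFIRINOX cells, against 223 CPM in control FOLFIRINOX cells (-0.39 ± 0.06, adjusted p = 3.2e-05 in edgeR's test), and CLDN4 and CLDN12 did not pass (adjusted p = 0.27 and 0.32 in edgeR's test). Under vehicle, CLDN1 was instead higher in E5 cells, at 157 against 95.6 CPM (0.73 ± 0.061, adjusted p = 3.3e-08 in edgeR's test). AMOTL2 and CLDN4 were also higher in E5 vehicle cells (0.46 ± 0.083, adjusted p = 0.00022, and 1.58 ± 0.3, adjusted p = 0.0004, in edgeR's test). AMOTL1, MYH9, MYH10, PPP1R14C and CDH18 kept their direction under vehicle, and PPP1R14B and CLDN12 did not pass (adjusted p = 0.31 and 0.94 in edgeR's test).

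RAB34 (ENSG00000109113.20, chromosome 17, 28714281 to 28718429) had the highest level per length of the set in control cells. Its authors' FPKM averaged 0.0933 ± 0.00577 in E5 FOLFIRINOX and 12.5 ± 2.41 in control FOLFIRINOX cells, and 0.41 ± 0.386 in E5 vehicle and 15.6 ± 2.40 in control vehicle cells (SD, n = 3 each). In CPM, RAB34 had 0.105, 0.0717 and 0.0645 in E5 FOLFIRINOX libraries, against 13.6, 13.4 and 11.1 in control FOLFIRINOX libraries (-7.04 ± 0.32, adjusted p = 1.2e-11 in edgeR's test). In E5 vehicle cells 5 of its 9 reads came from library 1, which gave 0.644 CPM, against 0.0603 and 0.245 CPM in the other libraries.

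JAKMIP2 had 0.262, 0.287 and 0.129 CPM in E5 FOLFIRINOX libraries, against 5.03, 3.16 and 3.10 CPM in control FOLFIRINOX libraries (-3.83 ± 0.33, adjusted p = 3.6e-08 in edgeR's test). NSG1 had 0.314, 0.574 and 0.516 CPM in E5 FOLFIRINOX libraries, against 2.04, 1.72 and 1.46 CPM in control FOLFIRINOX libraries, the smallest fitted change of the set (-1.79 ± 0.27, adjusted p = 3e-05 in edgeR's test). Of 21 early ciliogenesis symbols listed, 19 were tested including RAB34. Of the other 18, 5 were higher, 3 lower and 10 did not pass, and the list's median was -0.09, where 26.7% of all tested genes were called higher and 27.6% lower. EHD3, a membrane-shaping ATPase, was higher in E5 FOLFIRINOX cells at 16.6 CPM, against 7.33 CPM in control FOLFIRINOX cells (1.28 ± 0.1, adjusted p = 1.3e-08), and RAB23 lower at 45.4 CPM, against 66.9 CPM (-0.48 ± 0.064, adjusted p = 7.2e-06), in edgeR's test. Under vehicle, EHD3 did not pass, at 22.6 CPM in E5 and 22.8 CPM in control cells (-0.01 ± 0.086, adjusted p = 0.95 in edgeR's test). RAB23 was lower in E5 cells under vehicle too (-0.64 ± 0.067, adjusted p = 5.5e-07 in edgeR's test). RAB36, the closest paralogue of RAB34, was higher at 13.6 CPM in E5 FOLFIRINOX cells, against 8.89 CPM in control FOLFIRINOX cells (0.68 ± 0.13, adjusted p = 0.00024 in edgeR's test).

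Of the calcium genes, CALB1 was the least firmly called. It had 0, 0 and 0.129 CPM in E5 FOLFIRINOX libraries, against 0.815, 0.214 and 0.351 CPM in control FOLFIRINOX libraries. That was 2 against 16 reads, a ratio of control to E5 of 9.01 (95% exact counting interval 2.12 to 80.8, adjusted p = 0.018 in edgeR's test). The call was lost without E5 FOLFIRINOX library 1 (adjusted p = 0.078) or 2 (0.055) or control FOLFIRINOX library 1 (0.054), in the same test. In those fits and the others that left out 1 library, its log2 fold change ranged from -5.4 to -2.24. The largest adjusted p of CALB1 over its other alternatives was 0.035, in edgeR's test without control FOLFIRINOX library 3. CRACR2A had 0.209, 0.215 and 0.0645 CPM in E5 FOLFIRINOX libraries, against 3.80, 3.75 and 3.33 CPM in control FOLFIRINOX libraries (-4.30 ± 0.30, adjusted p = 2.8e-09 in edgeR's test).

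Of 9 EF-hand calcium buffer genes listed, 5 were tested, CALB1 among them, and the median was 0.07. CALB2, which encodes calretinin and is the closest relative of calbindin here, went the other way. It was higher at 46.5 CPM in E5 FOLFIRINOX cells, against 4.73 CPM in control FOLFIRINOX cells (3.38 ± 0.11, adjusted p = 7.7e-14 in edgeR's test). The calmodulin gene CALM3 was higher (0.26 ± 0.071, adjusted p = 0.0051) and CALM2 lower (-0.26 ± 0.081, adjusted p = 0.012) in edgeR's test. STIM1 and ORAI1, the sensor and channel of store-operated calcium entry that CRACR2A acts on, were at 42.0 and 30.4 CPM in E5 FOLFIRINOX cells, against 37.9 and 40.3 CPM in control FOLFIRINOX cells (0.22 ± 0.08, adjusted p = 0.03, and -0.34 ± 0.13, adjusted p = 0.034, in edgeR's test). Under vehicle, ORAI1 was instead higher in E5 cells (0.38 ± 0.14, adjusted p = 0.039), and STIM1 did not pass (adjusted p = 0.17), in edgeR's test.

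Among enzymes, SULT1B1 (ENSG00000173597.9, chromosome 4, 69721167 to 69787961) had 0.0523, 0.0717 and 0 CPM in E5 FOLFIRINOX libraries, against 11, 9.65 and 12.8 CPM in control FOLFIRINOX libraries. That was 2 against 479 reads, a ratio of control to E5 of 270 (95% exact counting interval 74.3 to 2230, adjusted p = 1e-11 in edgeR's test). A single read was left in the 3 E5 vehicle libraries, against 412 reads in the control vehicle libraries. PRTFDC1 had 0.471, 1 and 0.903 CPM in E5 FOLFIRINOX libraries, the highest mean of the set there, against 3.67, 4.72 and 4.45 CPM in control FOLFIRINOX libraries (-2.43 ± 0.23, adjusted p = 1.2e-07 in edgeR's test). HPRT1, its purine salvage relative, did not pass under drug, at 90.3 CPM in E5 FOLFIRINOX and 102 CPM in control FOLFIRINOX cells (-0.10 ± 0.063, adjusted p = 0.18 in edgeR's test). Under vehicle, HPRT1 was lower in E5 cells, at 87.2 against 122 CPM (-0.47 ± 0.064, adjusted p = 1e-05 in edgeR's test).

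Of 12 cytosolic sulfotransferase genes listed, SULT1B1 was the abundant one in control cells, and 4 were tested. SULT2B1, a cholesterol sulfotransferase, was lower at 0.288 CPM in E5 FOLFIRINOX cells, against 1.14 CPM in control FOLFIRINOX cells (-1.94 ± 0.42, adjusted p = 0.00093 in edgeR's test). SULT1A1 and SULT1C2 averaged under 1 CPM in each group and did not pass under FOLFIRINOX (adjusted p = 0.15 and 0.53 in edgeR's test). The median of the 4 under FOLFIRINOX was -1.11. Under vehicle, SULT1C2 was higher in E5 cells, at 0.504 against 0.137 CPM (2.15 ± 0.55, adjusted p = 0.0041 in edgeR's test). SULT1A1 and SULT2B1 did not pass under vehicle (adjusted p = 0.78 and 0.26 in edgeR's test).

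Among transcription factors and receptors, IL13RA2 had 0.157, 0.215 and 0.581 CPM in E5 FOLFIRINOX libraries, against 10.7, 8.2 and 9.59 CPM in control FOLFIRINOX libraries (-4.80 ± 0.27, adjusted p = 1.7e-10 in edgeR's test). Without E5 FOLFIRINOX library 3, which held the highest E5 value, it was -5.53. Its signalling relatives IL13RA1 and IL4R, which together form a receptor of interleukin-4 and interleukin-13, were higher in E5 FOLFIRINOX cells at 209 and 26.7 CPM, against 120 and 21.7 CPM in control FOLFIRINOX cells (0.88 ± 0.061, adjusted p = 2.4e-09, and 0.37 ± 0.092, adjusted p = 0.0027, in edgeR's test). EYA1 had 0.471, 0.502 and 0.129 CPM in E5 FOLFIRINOX libraries, against 2.72, 2.63 and 2.75 CPM in control FOLFIRINOX libraries (-2.76 ± 0.30, adjusted p = 6.7e-07 in edgeR's test). EYA2 was also lower, at 0.69 CPM in E5 FOLFIRINOX and 1.86 CPM in control FOLFIRINOX cells (-1.42 ± 0.31, adjusted p = 0.0009 in edgeR's test).

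OR51B5 (chromosome 11, 5303444 to 5505652) had a single read in the 3 E5 FOLFIRINOX libraries, against 159 in the control FOLFIRINOX libraries, a ratio of control to E5 of 179 (95% exact counting interval 31.7 to 7120, adjusted p = 1.2e-08 in edgeR's test). Without E5 FOLFIRINOX library 1, which held that read, the E5 group was at 0 (adjusted p = 3.4e-07 in edgeR's test). It was the gene with 0 reads over the E5 vehicle libraries, against 171 reads in control vehicle libraries. In control FOLFIRINOX libraries it had 3.26, 3.27 and 4.33 CPM, beside the 4.01, 3.58 and 3.10 CPM of control vehicle libraries. The gene spans other olfactory receptor and globin genes on its own strand, among them HBE1, HBG2 and OR51B2, so reads in this region can be hard to assign. OR51B4, another olfactory receptor gene, averaged 0 CPM in E5 FOLFIRINOX and 0.673 in control FOLFIRINOX cells, and 0 in E5 vehicle and 0.354 in control vehicle cells. OR51B2, HBE1 and HBG2 were at 0 in both E5 groups but also at or near 0 in control cells. They averaged 0.154, 0 and 0 CPM in control FOLFIRINOX cells and 0.0875, 0.0153 and 0.441 CPM in control vehicle cells.

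LRATD1 had 0.523, 0.359 and 0.645 CPM in E5 FOLFIRINOX libraries, against 4.48, 4.40 and 4.27 CPM in control FOLFIRINOX libraries (-2.99 ± 0.22, adjusted p = 7.5e-09 in edgeR's test). Its paralogue LRATD2 was higher at 46.6 CPM in E5 FOLFIRINOX cells, against 2.68 CPM in control FOLFIRINOX cells (4.17 ± 0.12, adjusted p = 2e-14 in edgeR's test). C11orf96 had 0.575, 0.287 and 0.387 CPM in E5 FOLFIRINOX libraries, against 1.22, 1.72 and 1.93 CPM in control FOLFIRINOX libraries (-1.88 ± 0.37, adjusted p = 0.00039 in edgeR's test). LRATD1 and C11orf96 thus parted the lines without overlap, like the other 19 genes.

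Over all 51 paralogues, partners and neighbours in the gene family that were listed from the names of the 21 genes, 30 were tested. Of these 10 were lower, 11 higher and 9 did not pass, with a median log2 fold change of -0.01. Those named above were picked after their values were seen. Among all tested genes 27.6% were called lower and 26.7% higher. CDH18 alone of the 30 had a fold change of at least 4-fold lower, as did 2.14% of all tested genes.

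The same rule applied to the drug libraries gave a smaller overlap. Of 10734 protein-coding genes of at least 3 CPM in control FOLFIRINOX cells, 24 (0.224%) were under 0.5 CPM in E5 FOLFIRINOX cells, and 17 of them remained after the same names were left out. Of the 21 genes, 7 were among these 17, which is 33.3% of the 21 and 41.2% of the 17. The others missed a threshold: 10 of the 21 were under 3 CPM in control FOLFIRINOX cells, and 4 stood at 0.5 CPM or more in E5 FOLFIRINOX cells. Those 4 were PRTFDC1, KAZN, PPP1R14A and LRATD1, at means of 0.793, 0.751, 0.57 and 0.509 CPM.

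The effect of FOLFIRINOX in each line was described without a test, because the vehicle libraries in it chose the genes. In control cells 9 of the 21 genes had a mean at least 2-fold lower under FOLFIRINOX than under vehicle, where 6.01% of the 10637 protein-coding genes of at least 3 CPM did. IL13RA2 was at least 2-fold higher, as were 5.42% of those genes, and 11 lay within 2-fold. The median ratio of FOLFIRINOX to vehicle was 0.634 for the 21 genes and 1.02 for the 10637. The 21 genes lay near the limit of 3 CPM, with a median of 4.16 CPM in control vehicle cells. The 10637 were not matched to them in level, so these shares are not a like comparison. For 14 genes every FOLFIRINOX library lay below every vehicle library and for 3 above, against 33.0% and 38.1% of the 10637, and 4 overlapped.

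The lowest ratios in control cells were those of CALB1, GRHL3 and EYA1. CALB1 had the 0.815, 0.214 and 0.351 CPM given above under FOLFIRINOX, against 4.55, 5.10 and 4.87 CPM under vehicle, a ratio of 0.0951. GRHL3 averaged 0.67 ± 0.181 CPM under FOLFIRINOX and 5.14 ± 0.446 CPM under vehicle (SD, n = 3 each), a ratio of 0.13. EYA1 averaged 2.70 ± 0.0632 CPM under FOLFIRINOX and 8.19 ± 0.197 CPM under vehicle (SD, n = 3 each), a ratio of 0.33. CALB1 was thus under 0.5 CPM in drugged control cells too, as were 0.0282% of the 10637 genes. CDH10 and JAKMIP2 followed with ratios of 0.388 and 0.429, and EVPL, NSG1, C11orf96 and AMOT lay between 0.437 and 0.493.

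At the other end, IL13RA2 had 10.7, 8.2 and 9.59 CPM in control FOLFIRINOX libraries, against 4.01, 3.08 and 3.38 CPM in control vehicle libraries, a ratio of 2.73. KAZN and SULT1B1 had ratios of 1.43 and 1.36, and their drug libraries also lay above all vehicle libraries. CRACR2A, OR51B5, PPP1R14A and PRTFDC1 had ratios of 1.10, 1.02, 1.01 and 0.95 with overlapping libraries. SCEL and RAB34, the most abundant by CPM, had ratios of 0.773 and 0.697.

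**Figure D4:**
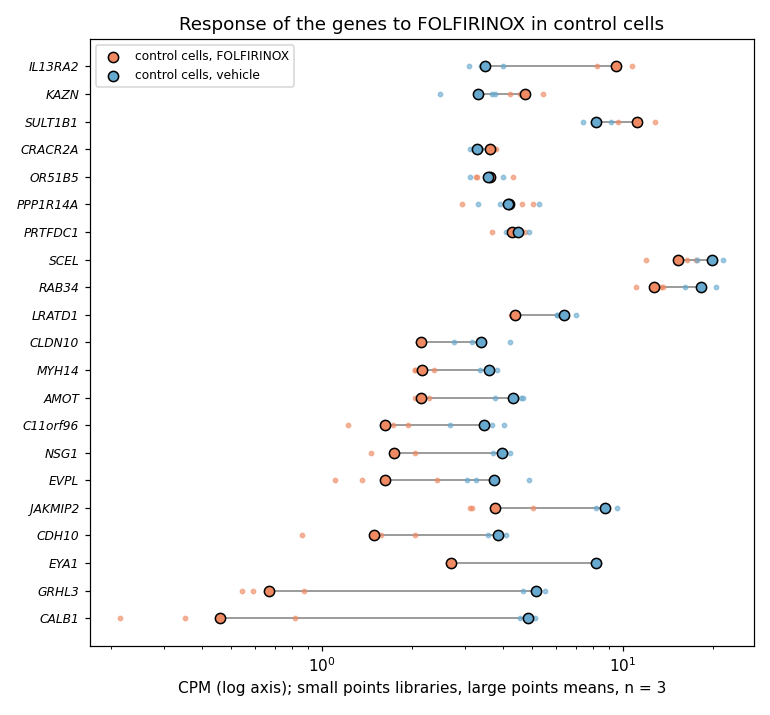
CPM (x axis, log scale) of the 21 genes in control cells given FOLFIRINOX (orange) and vehicle (blue), with small points for libraries and large points for means of 3, ordered by the ratio of the means. CALB1 (0.46 against 4.84 CPM) and GRHL3 (0.67 against 5.14 CPM) lie at the bottom and IL13RA2 (9.51 against 3.49 CPM) at the top.

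In E5 cells the genes were low with either treatment. For 18 of the 21, E5 FOLFIRINOX and E5 vehicle libraries overlapped. PRTFDC1 was the gene with all drug libraries above all vehicle libraries, at 0.471, 1 and 0.903 CPM in E5 FOLFIRINOX, against 0.129, 0.302 and 0.327 CPM in E5 vehicle cells. GRHL3 and MYH14 had all drug libraries below, GRHL3 at 0.0523, 0.0717 and 0.129 CPM in E5 FOLFIRINOX, against 0.515, 0.603 and 0.327 CPM in E5 vehicle cells. Libraries parted upwards for 34.0% and downwards for 32.7% of the 10637 genes, most of which have far more reads.

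The genes were spread over 12 chromosomes with at most 2 on any of them. Each was set beside the nearest protein-coding gene before and after it that did not overlap it and averaged at least 1 CPM over all libraries. Overlapping genes were thus left out, among them STPG1 (on GRHL3), STX18 (NSG1), DZIP1 (CLDN10) and SPINT2 (PPP1R14A), all on the opposite strand. These averaged 7.77, 39.7, 38.2 and 83.3 CPM in E5 FOLFIRINOX cells, against 9.13, 39.3, 28.0 and 109 CPM in control FOLFIRINOX cells. Of the 42 neighbours, 2 belong to the set, AMOT and IL13RA2 on the X chromosome, whose genes lie 2.16 Mb apart. Among the other 40, 14 were lower, 12 higher and 14 did not pass under FOLFIRINOX, with a median log2 fold change of -0.02. Among all tested genes 27.6% were lower and 26.7% higher.

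Single neighbours, named here after their values were seen, differed from this. SLAIN1, which encodes a microtubule-binding protein and lies 52.4 kb beyond SCEL, was lower at 0.946 CPM in E5 FOLFIRINOX cells, against 4.67 CPM in control FOLFIRINOX cells (-2.2 ± 0.23, adjusted p = 4.1e-07 in edgeR's test). MYCBP2 on the other side of SCEL did not pass (-0.09 ± 0.091, adjusted p = 0.45 in edgeR's test). SLAIN1 and CDH18, which lies 3910 kb before CDH10, were the 2 of the 40 with a fold change of at least 4-fold lower, beside 2.14% of all tested genes. RPL23A, a ribosomal protein gene 1.56 kb beyond RAB34, did not pass at 124 CPM in E5 FOLFIRINOX and 131 CPM in control FOLFIRINOX cells (0.01 ± 0.07, adjusted p = 0.94), and PROCA1, 2.43 kb on its other side, was lower (-1.12 ± 0.35, adjusted p = 0.012), in edgeR's test. Under vehicle, PROCA1 was level instead, at 1.68 CPM in E5 and 1.69 CPM in control cells (log2 fold change -0.03). RPL23A stood at 99.2 CPM in E5 vehicle and 127 CPM in control vehicle cells (-0.34). DECR1, which encodes a reductase of fatty acid oxidation and lies 4.97 kb from CALB1, did not pass (0.04 ± 0.066, adjusted p = 0.64 in edgeR's test). MSC, a transcription factor gene 250 kb beyond EYA1, was higher at 5.92 CPM in E5 FOLFIRINOX cells, against 0.312 CPM in control FOLFIRINOX cells (4.24 ± 0.3, adjusted p = 1.5e-08 in edgeR's test). TRIB2, which encodes a pseudokinase and lies 1890 kb before LRATD1, was higher at 80.4 CPM in E5 FOLFIRINOX cells, against 10.9 CPM in control FOLFIRINOX cells (2.97 ± 0.088, adjusted p = 4.6e-14 in edgeR's test). TMPRSS11E, a transmembrane serine protease gene 1220 kb before SULT1B1, was higher at 14.3 CPM in E5 FOLFIRINOX cells, against 2.93 CPM in control FOLFIRINOX cells (2.37 ± 0.15, adjusted p = 6.5e-10 in edgeR's test). SRP68, which encodes a subunit of the signal recognition particle and lies 11.5 kb beyond EVPL, did not pass at 181 CPM in E5 FOLFIRINOX and 191 CPM in control FOLFIRINOX cells (adjusted p = 0.98 in edgeR's test).

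**Figure D5:**
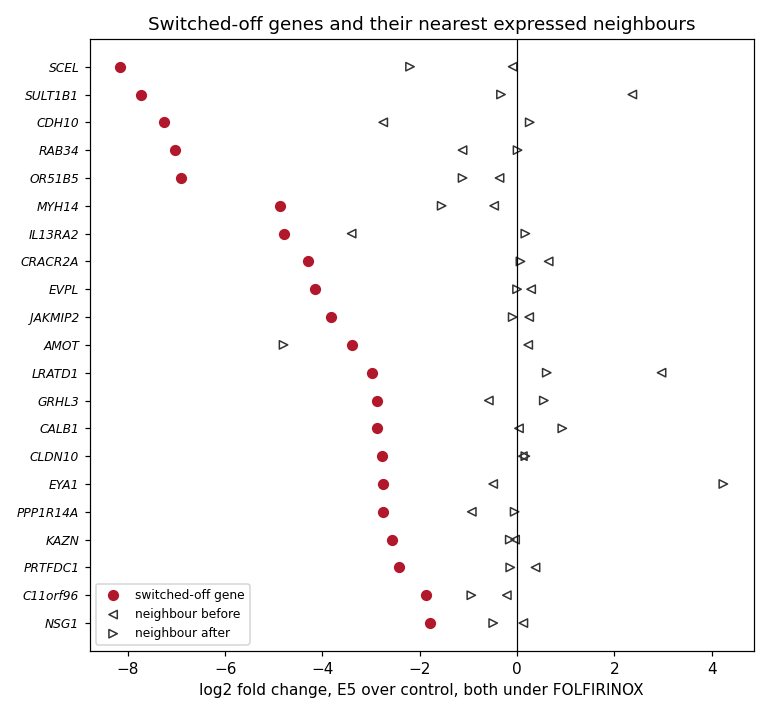
Log2 fold change in E5 FOLFIRINOX cells over control FOLFIRINOX cells (x axis) of the 21 switched-off genes (red points) and of the nearest expressed protein-coding gene on each side that does not overlap them (open triangles). Most neighbours lie near 0 (median of the 40 non-members -0.02), with SLAIN1 beside SCEL and CDH18 beside CDH10 at -2.2 and -2.75, and MSC beside EYA1, TRIB2 beside LRATD1 and TMPRSS11E beside SULT1B1 at 4.24, 2.97 and 2.37.

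Levels of the genes that write or erase DNA methylation and Polycomb marks, which are known to silence genes, were listed as context. Of 8 DNA methylation genes, 2 were higher, 5 lower and 1 failed the test under FOLFIRINOX, and the median was -0.24. Over all tested genes 26.7% were called higher and 27.6% lower. DNMT3B, a de novo methyltransferase, was lower at 7.25 CPM in E5 FOLFIRINOX cells, against 12.2 CPM in control FOLFIRINOX cells (-0.68 ± 0.11, adjusted p = 3.7e-05 in edgeR's test). HELLS, a chromatin remodeler, was lower at 112 CPM in E5 FOLFIRINOX cells, against 175 CPM in control FOLFIRINOX cells (-0.57 ± 0.12, adjusted p = 0.00076 in edgeR's test). TET1, which oxidises methylcytosine, was lower at 3.41 CPM in E5 FOLFIRINOX cells, against 5.90 CPM in control FOLFIRINOX cells (-0.66 ± 0.19, adjusted p = 0.0068 in edgeR's test). Of 24 Polycomb and H3K27 demethylase genes, 6 were higher, 5 lower and 13 failed the test, and the median was -0.02, beside the same shares over all tested genes. EZH2, the main H3K27 methyltransferase, was lower at 112 CPM in E5 FOLFIRINOX cells, against 159 CPM in control FOLFIRINOX cells (-0.43 ± 0.056, adjusted p = 6.3e-06 in edgeR's test). CBX6, a reader subunit of Polycomb complexes, was higher at 163 CPM in E5 FOLFIRINOX cells, against 89.8 CPM in control FOLFIRINOX cells (0.93 ± 0.065, adjusted p = 3e-09 in edgeR's test). No methylation or chromatin data were analysed here.

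Just inside the limit of 3 CPM in control vehicle cells were CRACR2A, KAZN and CLDN10, at 0.145, 0.409 and 0.151 CPM in E5 vehicle and 3.29, 3.31 and 3.38 CPM in control vehicle cells. Just outside it were ZNF334, SLC2A10 and SLC16A7, at 0, 0.0974 and 0 CPM in E5 vehicle and 2.98, 2.75 and 2.45 CPM in control vehicle cells. Just inside the limit of 0.5 CPM in E5 vehicle cells were GRHL3, NSG1 and MYH14, at 0.482, 0.453 and 0.414 CPM in E5 vehicle and 5.14, 3.96 and 3.60 CPM in control vehicle cells. Just outside it were CNTN1, FOXS1 and PRDX2, at 0.505, 0.508 and 0.532 CPM in E5 vehicle and 4.96, 4.90 and 7.85 CPM in control vehicle cells. With limits of 5 and 0.25 CPM, 2 genes would be left, and with 2 and 1 CPM there would be 97.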

How the data were processed

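RNA of KP4 cells was made into libraries with an mRNA kit, per the labels' protocols. Trimming with Trimmomatic and alignment software STAR, version 2.5.1b, are listed in the submitters' processing notes, as is build GRCh38. The deposited counts are stranded reads per gene. The authors' FPKM and rlog (regularised log2) values served as alternatives, made by a program the sources do not name. Reads outside genes (unmapped, multimapping, without a feature or ambiguous, 23.0 to 25.8% of a library) stayed out of library sizes.

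The genes, lists, relatives and tests were chosen with earlier results of these data known. CPM is the count over gene reads of the library. Counts of all 12 libraries in 4 groups were fitted in edgeR 4.0.16 (R 4.3.3) with a group means model, TMM scaling and filterByExpr, which left 15636 genes, and tested by quasi-likelihood with Benjamini-Hochberg adjustment over all of them at 0.05. Alternatives used limma 3.58.1 and DESeq2 1.42.0. Genes given by library were the examples of the rule, the 10 highest in control vehicle and in E5 FOLFIRINOX cells, the 3 just inside and outside each threshold, the 5 most raised and lowered by drug in control cells, those not called and those next to another member. All 21 are named. Promoters came from RefSeq, matched by Ensembl ID or symbol. Strand came from GENCODE.

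Column numbers were checked for pairing between E5 and control FOLFIRINOX libraries. Same-numbered deviations correlated across genes at -0.0553, 0.148 and 0.126 for numbers 1, 2 and 3. Differently numbered ones correlated at -0.0357 to 0.0851, -0.101 to -0.0633 and -0.215 to 0.109 for the same E5 columns. The same-numbered value was thus the highest for numbers 2 and 3 but not for 1. The columns were not treated as pairs, and this check does not exclude pairing.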

Additional observations from a re-analysis of the deposited data

How the results depend on the processing

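All 21 genes were called lower in E5 FOLFIRINOX cells with DESeq2 size factors, total counts only, DESeq2's Wald test, no filter, both FPKM scales and rlog. With only the FOLFIRINOX libraries 19 were fitted and called, since CALB1 and GRHL3 did not pass the filter. Leaving out a library gave 20 to 21 calls, with CALB1 the gene lost each time. With the column number as a replicate block, 21 were called and no call changed. The number of genes in the set moved with its limits: 2 with 5 and 0.25 CPM, 97 with 2 and 1 CPM and 13 on the authors' FPKM, of which 3 are shared with the 21. It was 20 with TMM-scaled CPM and 20 to 26 without a vehicle library. Genes at least 2-fold lower by drug in control cells numbered 9, with 6 on FPKM and 7 to 9 without a library. On FPKM 1 gene, and not 4, was at 0.5 or more in E5 FOLFIRINOX cells, and 3 to 5 without a library. FPKM divides by length, so the limits mean another level there. Median log2 fold changes ranged from -3.84 with the FOLFIRINOX libraries only to -0.77 on log2(FPKM + 1), a scale that shrinks low genes. The all-gene median shifted to -0.10 on log2(FPKM + 1) and -0.13 on log2(FPKM + 0.1), and the genes' changes are far larger. Depth limits the E5 values: they rest on 0 to 37 reads over 3 libraries.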
